A study of Mus musculus with 4 samples.

Results

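Interferon-stimulated genes were followed in brown adipose tissue (BAT) of mice with and without a deletion of Sox4. The group comprises 40 genes, chosen by name and found by matching their symbols. All 40 had a row among the 55387 rows listed for each library, and 38 passed the expression limit of the study and were tested. That limit is a mean FPKM over 1 in either genotype, where FPKM is the number of fragments read from a gene, divided by its transcript length in kilobases and scaled by library depth. Mx1 and Oas3 stayed under it.

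RNA sequencing covered 4 male mice aged 15 weeks, with 1 library per mouse. The 2 control mice were Sox4f/f littermates, in which Sox4 is flanked by loxP sites, and the labels call their genotype WT. The 2 Sox4-MKO mice came from crossing Sox4f/f mice with mice that carry a Cre recombinase under control of Myf5, a gene active in precursors of brown adipocytes and skeletal muscle. Such a Cre is meant to act in that lineage. Whether it acted in other cells, such as resident immune or endothelial cells, was not tested. The labels name brown adipocytes as the cell type, but the RNA came from BAT tissue, so that RNA of the other cells is part of each library.

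Sox4 mRNA itself stood at 1.98 and 1.06 FPKM in Sox4f/f mice 1 and 2 and at 0.98 and 3.06 FPKM in Sox4-MKO mice 1 and 2. It was therefore not lower under the Sox4-MKO label, and every direction given here follows the labels. Of 6 adipocyte markers, Ucp1, the uncoupling protein of brown fat, fell from 1935 and 1814 FPKM to 733.5 and 1105 FPKM under that label, and Cidea, a lipid droplet protein, fell from 1742 and 1849 FPKM to 989 and 984 FPKM (adjusted p = 0.213 and 0.196, limma). The values of low genes put the depth at roughly 12100000 to 13400000 fragments in 3 libraries. For Sox4-MKO mouse 2 the estimate was 16100000 or 4900000 fragments, depending on where the search for the value of a single fragment began. By these estimates 14 or 17 of the 40 genes rested on fewer than 100 fragments in at least one library, down to 7 for Ifitm1. Adipoq, Plin1 and Fabp4, markers of all adipocytes, were abundant in every library and not called, while the brown adipocyte marker Elovl3 ranged from 1.31 to 3.24 FPKM.

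Interferons are secreted proteins, released when a cell detects viral nucleic acid or when lymphocytes are activated. Type I interferons bind a receptor of IFNAR1 and IFNAR2, interferon gamma binds IFNGR1 and IFNGR2, and the kinases JAK1, TYK2 and JAK2 then phosphorylate STAT proteins. Phosphorylated STAT proteins join IRF9 in a complex that binds the interferon-stimulated response element, whereas STAT dimers without IRF9 bind the gamma-activated sequence. The target genes encode antiviral enzymes, nucleic acid sensors and GTPases, and many tissues transcribe them at a low level without infection.

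The binding sequences are shown first because many of these genes share them. Promoter sequences from 250 bases before to 50 bases after the transcription start were taken from RefSeq on GRCm38.p6, and 31 of the 40 genes matched. The core of the response element was searched on both strands as GAAA, any 2 bases and GAAA. The gamma-activated sequence was searched as TTC, any 3 bases and GAA, which reads alike on both strands. At least 1 response element core was found in 19 of the 31 genes (61.3%), against 3.99% of the 27025 genes with a promoter sequence. A gamma-activated sequence was found in 10 of the 31 (32.3%), against 9.55% of all genes. Usp18, Mx1, Mx2, Oas2, Dhx58, Zbp1, Iigp1, Ifi27 and Parp14 are named only. The stretches below come from some of the families described in the text, not from all, with matches to either motif in capitals. A core on the opposite strand reads TTTC, 2 bases and TTTC.
Ifit1: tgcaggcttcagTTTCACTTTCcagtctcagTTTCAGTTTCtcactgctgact
Ifit3: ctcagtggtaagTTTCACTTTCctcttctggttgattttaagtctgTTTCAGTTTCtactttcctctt
Ifit3b: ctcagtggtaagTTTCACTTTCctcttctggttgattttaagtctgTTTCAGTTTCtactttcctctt
Isg15: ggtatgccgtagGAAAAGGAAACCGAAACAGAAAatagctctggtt
Ifitm3: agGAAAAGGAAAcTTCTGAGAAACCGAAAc
Gbp2: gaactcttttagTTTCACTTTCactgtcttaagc
Igtp: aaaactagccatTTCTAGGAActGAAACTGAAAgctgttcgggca
Irf1: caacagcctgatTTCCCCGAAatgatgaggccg

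These stretches lie at chr19:34640773-34640825 (plus strand) for Ifit1, chr19:34583361-34583428 (plus) for Ifit3, chr19:34607757-34607824 (plus) for Ifit3b and chr4:156200863-156200908 (minus) for Isg15. Those of Ifitm3, Gbp2, Igtp and Irf1 lie at chr7:141010715-141010744 (minus), chr3:142620592-142620625 (plus), chr11:58199499-58199543 (plus) and chr11:53769912-53769944 (plus). Isg15 carried 3 overlapping cores. In Ifitm3 the 2 cores and the gamma-activated sequence fell in the first 30 bases after the RefSeq transcription start. There the second core and the gamma-activated sequence overlap. The start of Ifitm3 in the gene position given below lies further upstream, at chr7:141010770. Irf1 carried a gamma-activated sequence and no core. The 250 bases upstream of Ifit3 and Ifit3b, both on chromosome 19, were identical at 217 of 218 aligned bases, with 64 gap positions.

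Few interferon-stimulated genes separated the genotypes. By the rule of the study, an unadjusted p under 0.05, limma on log2(FPKM + 1) called 2 of the 38 tested genes higher in the libraries labelled Sox4-MKO (5.26%), against 7.95% of all 12877 genes tested. It called 0 lower, against 8.28% of all genes, and 16.2% of all genes were called in either direction. After Benjamini-Hochberg adjustment over all genes, limma called 0 of the 38 and 0% of all genes, and the smallest adjusted p of the 38 was 0.216. With 2 mice per genotype, exact permutation of the labels cannot give a single gene a two-sided p below 0.333. Differences between genotypes are given from here on as log2 fold changes of FPKM + 1, Sox4-MKO minus Sox4f/f, ± the standard error of the limma fit with n = 2 mice each. For 26 of the 38 genes the 95% confidence interval of this difference lay between -1 and 1.

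The median difference of the 38 genes was 0.21, against -0.05 for all genes tested, with a range of -0.43 to 0.83. It was positive at 29 of the 38 genes (76.3%), against 44% of all genes. Both libraries labelled Sox4-MKO lay above both Sox4f/f libraries at 10 genes (26.3%), against 21.7% of all genes, and below at 3 genes (7.89%), against 29.6%. At the remaining 25 genes the genotypes overlapped, whereas 51.3% of all genes had no overlap. The median of the 38 genes depended on which control mouse was kept. It was -0.030 without Sox4f/f mouse 2 and 0.33 without Sox4f/f mouse 1, where the median of all genes was -0.06 and -0.03.

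**Figure D1:**
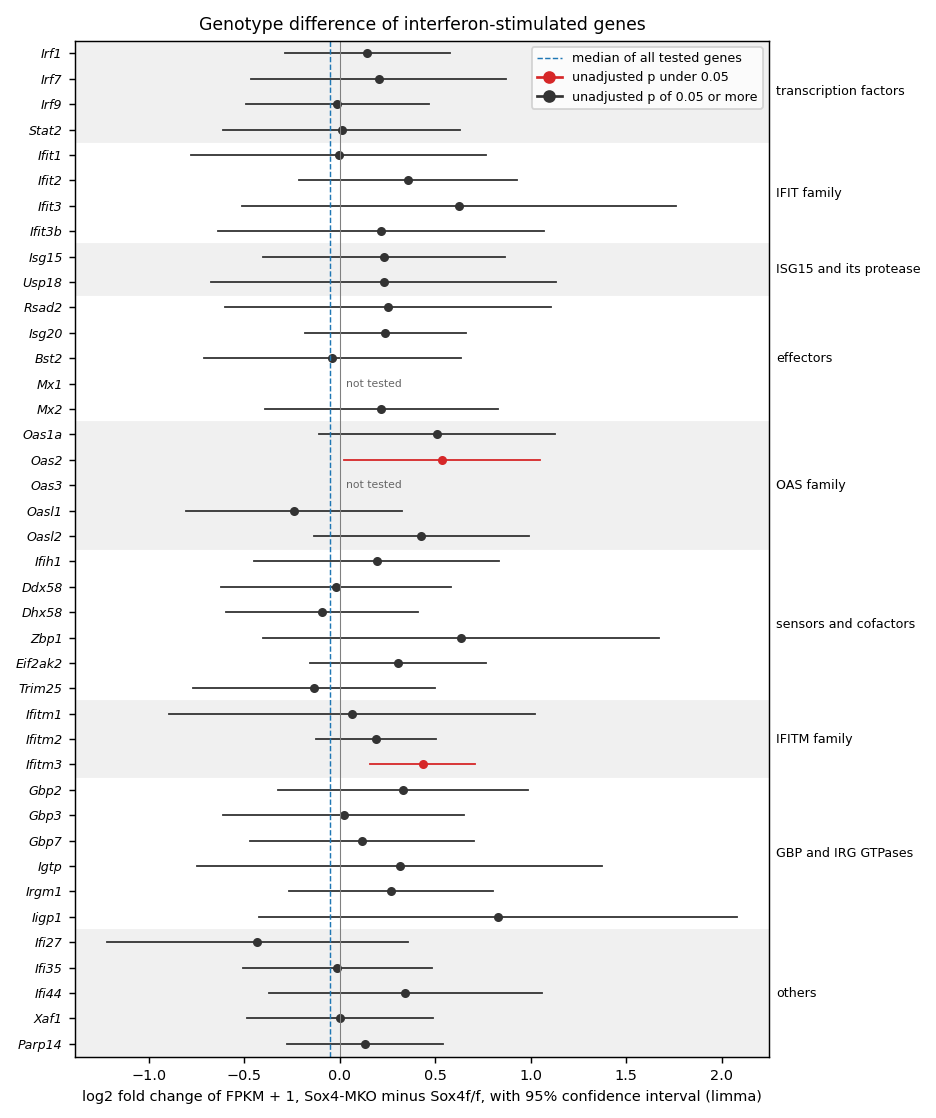
Difference between genotypes of the 40 interferon-stimulated genes, as log2 fold change of FPKM + 1 (x axis, Sox4-MKO minus Sox4f/f, n = 2 mice each), ordered by role, with points for the limma estimate, bars for its 95% confidence interval and a dashed line for the median of all tested genes at -0.05. Oas2 and Ifitm3, in red, have an unadjusted p under 0.05 by limma, the intervals of the other tested genes include 0, and Mx1 and Oas3 were not tested.

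The IFITM family holds one of the called genes. Its proteins sit in cell and endosomal membranes and hinder the entry of enveloped viruses. Ifitm3 (ENSMUSG00000025492.6, chr7:141009586-141010770 on GRCm38, minus strand) measured 99.1 and 98.9 FPKM in the controls but 133.5 and 134.7 FPKM under the Sox4-MKO label. The mice of a genotype lay close together and the genotypes did not overlap. The difference was 0.43 ± 0.10 (unadjusted p = 0.0105, adjusted p = 0.216, limma) and stayed between 0.43 and 0.44 with each library left out. The unadjusted p by limma was 0.0664 without Sox4f/f mouse 1 and 0.0648 without Sox4f/f mouse 2, so the call was lost there. Of the 50-base words in its transcripts, 10% also occur in transcripts of other genes.
Ifitm2 measured 127 and 141 FPKM in the controls and 158 and 148 FPKM under the Sox4-MKO label. It did not overlap either, but its difference of 0.19 ± 0.12 was not called. Of its words 48.5% recur elsewhere, mainly in Gm45717, which overlaps it on the same strand. Ifitm1 rested on few fragments, with 1.33 and 0.87 FPKM in the controls, and the libraries labelled Sox4-MKO gave both the lowest value, 0.64 FPKM, and the highest, 1.90 FPKM.

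The OAS family holds the other called gene. OAS enzymes respond to double-stranded RNA by making the oligoadenylate that activates RNase L. Oas2 (ENSMUSG00000032690.16, chr5:120730333-120749853 on GRCm38, minus strand) rose from 2.11 and 2.74 FPKM to 3.86 and 4.02 FPKM, without overlap. The difference was 0.53 ± 0.19 (unadjusted p = 0.0439, adjusted p = 0.294, limma). Fits that left out a library put it at 0.40 to 0.67, and it was called in none of them. The call was also lost after scaling to a common median or quantile normalization, and with a replicate block. It was lost with an FPKM limit of 0.1 or no limit, without moderation and with a minimum fold change of 1.5. With a limit of 5 Oas2 was not tested. The call stayed after rescaling without mitochondrially encoded genes and Ucp1 and with pseudocounts of 0.1 and 0.01.
Oas1a went from 1.49 and 1.56 FPKM in the controls to 2.13 and 3.14 FPKM, a difference of 0.51 ± 0.23. Oasl2 went from 5.21 and 6.20 FPKM to 6.75 and 9.43 FPKM, a difference of 0.43 ± 0.21. In both the genotypes did not overlap, and neither was called. Oas1a shares 57.6% of its words with Oas1g, so that its count of fragments is uncertain. Oasl1, which restrains the translation of Irf7 mRNA, lay at 1.78 and 1.81 FPKM in the controls and lower, at 1.54 and 1.22 FPKM, under the Sox4-MKO label, a difference of -0.24 ± 0.21 that was not called. Oas3, under the expression limit, ranged from 0.13 to 0.31 FPKM in the controls and from 0.54 to 0.70 FPKM under the Sox4-MKO label. Sox4f/f mouse 1 was above Sox4f/f mouse 2 at none of the 4 tested OAS genes, against 52.3% of all genes. Most genes of the group had mouse 1 above mouse 2.

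Macrophage markers were also higher under the Sox4-MKO label. The 8 markers Adgre1, Cd68, Csf1r, Mrc1, C1qa, C1qb, C1qc and Cd14 summed to 128 and 177 FPKM in the controls and to 277 and 248 FPKM under the Sox4-MKO label. All 8 were higher without overlap, against 21.7% of all genes. Of the 8, 6 were called higher, against 7.95% of all genes, and none was at 0. Of 4 monocyte and neutrophil markers 2 were called higher, against 7.95% of all genes. The 4 markers summed to 7.22 and 5.91 FPKM in the controls and to 11.0 and 22.7 FPKM under the Sox4-MKO label. The 4 dendritic cell markers summed to 1.29 to 1.75 FPKM in every library. Only Itgax was tested, and it was lower without overlap and not called. Siglech, Flt3 and Xcr1 stayed under the expression limit, and each was higher in both libraries labelled Sox4-MKO than in both controls. Of all genes tested, 21.7% were higher in this way. Siglech was at 0.20 and 0.10 FPKM in the controls and at 0.49 and 0.50 FPKM under the Sox4-MKO label. In whole tissue, a change in the number of cells of a type and a change in RNA per cell cannot be told apart, and the part of these cells in the levels of Ifitm3 and Oas2 was not tested.

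Transcription factors of the response did not separate the genotypes. Stat2, the STAT particular to type I and type III interferon signalling, had control values of 15.1 and 10.1 FPKM and Sox4-MKO values of 13.8 and 11.2 FPKM, a difference of 0.0092 ± 0.24. Irf1, an early interferon gamma target that switches on further genes, had control values of 16.7 and 14.8 FPKM and Sox4-MKO values of 19.4 and 15.7 FPKM, a difference of 0.14 ± 0.16. For both genes the genotypes overlapped. Irf9, the DNA-binding partner of STAT proteins, and Irf7, which amplifies type I interferon production, differed by -0.01 ± 0.18 and 0.20 ± 0.25. In all 4 genes Sox4f/f mouse 2 had the lowest value, as it did in 20.1% of all genes tested.

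The IFIT proteins bind foreign RNA at its end. Ifit3 was at 10.5 and 5.12 FPKM in Sox4f/f mice 1 and 2 and at 16.4 and 8.61 FPKM in Sox4-MKO mice 1 and 2. Within each genotype the mice lay further apart (0.90 and 0.86 on the log2 scale) than the genotypes (0.63 ± 0.43), and leaving out a library moved the difference to between 0.17 and 1.08. Ifit3b kept the same order of mice at a lower level, between 1.66 and 3.59 FPKM. As 51.2% of the words of Ifit3 recur in Ifit3b, the division of fragments between these near copies is uncertain.
Ifit1 was at 5.92 and 3.24 FPKM in the controls and at 4.89 and 3.94 FPKM under the Sox4-MKO label, a difference of -0.0056 ± 0.29. Ifit2 was the IFIT gene without overlap, at 2.15 to 2.96 FPKM in the controls and 3.20 to 3.87 FPKM under the Sox4-MKO label, and its difference of 0.36 ± 0.22 was not called.

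ISG15 is a ubiquitin-like protein that is attached to other proteins, and USP18 removes it and dampens signalling at the type I receptor. Isg15 measured 14.6 and 9.13 FPKM in Sox4f/f mice 1 and 2, and 13.6 and 13.9 FPKM under the Sox4-MKO label. Usp18 measured 6.17 and 3.05 FPKM in the same controls, and 4.45 and 6.33 FPKM under the Sox4-MKO label. Sox4f/f mouse 2 was lowest in both, against 20.1% of all genes. Their differences were 0.23 ± 0.24 and 0.23 ± 0.34, and became -0.078 and -0.18 without Sox4f/f mouse 2.
Among the direct effectors, Rsad2 encodes viperin, which makes a chain-terminating nucleotide. It measured 10.5 and 5.26 FPKM in the controls and 9.64 and 8.63 FPKM under the Sox4-MKO label. The difference of 0.25 ± 0.32 was -0.19 without Sox4f/f mouse 2, and 0.69 and called without Sox4f/f mouse 1. Bst2, which encodes the tetherin that holds budding virus on the cell surface, measured 67.8 and 54.7 FPKM in the controls, between the 47.4 and 74.0 FPKM found under the Sox4-MKO label, a difference of -0.04 ± 0.25. Isg20, an exonuclease, and Mx2, a dynamin-like GTPase, were higher without overlap by 0.24 ± 0.16 and 0.22 ± 0.23, and neither was called. Mx1, under the expression limit, was at 0.43 and 0.35 FPKM in the controls and at 0.52 and 0.81 FPKM under the Sox4-MKO label.

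Sensors of foreign RNA and DNA and their cofactors showed no common direction. Ddx58, which encodes the RNA sensor RIG-I, had control values of 12.3 and 9.60 FPKM and Sox4-MKO values of 8.97 and 12.7 FPKM, a difference of -0.02 ± 0.23. Trim25, a ubiquitin ligase that assists RIG-I, had control values of 14.4 and 9.37 FPKM and Sox4-MKO values of 9.64 and 11.5 FPKM, a difference of -0.14 ± 0.24. Both overlapped between the genotypes. The related sensors Ifih1 (MDA5) and Dhx58 (LGP2) differed by 0.19 ± 0.24 and -0.09 ± 0.19, and Eif2ak2, the kinase PKR that halts translation, by 0.31 ± 0.18 without overlap. Zbp1, a sensor of nucleic acid in the Z conformation, was lowest in Sox4f/f mouse 2 at 2.05 FPKM and highest in Sox4-MKO mouse 1 at 7.05 FPKM, with a difference of 0.64 ± 0.39. None of these 6 genes was called.

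The GBP and IRG GTPases attack the vacuoles of intracellular microbes and respond strongly to interferon gamma. Igtp was at 28.3 and 12.3 FPKM in Sox4f/f mice 1 and 2 and at 25.9 and 21.4 FPKM under the Sox4-MKO label. Its difference of 0.31 ± 0.40 was -0.26 without Sox4f/f mouse 2, and 0.88 and called without Sox4f/f mouse 1. Igtp overlaps Irgm2 on the same strand and shares 11.8% of its words with it. Gbp2 was at 23.5 and 16.8 FPKM in the controls and at 30.1 and 21.3 FPKM under the Sox4-MKO label, a difference of 0.33 ± 0.25.
Iigp1, singled out after its values were seen, had the largest difference of the 38 genes, with 23.0 and 9.24 FPKM in the controls and 34.1 and 21.1 FPKM under the Sox4-MKO label. At 0.83 ± 0.48 it was not called, and Sox4f/f mouse 1 lay between the mice labelled Sox4-MKO. Without Sox4f/f mouse 1 it was called. Gbp3, Gbp7 and Irgm1 differed by 0.02, 0.12 and 0.27. All 6 GTPase genes overlapped between genotypes, whereas 51.3% of all genes had no overlap. All 6 were lowest in Sox4f/f mouse 2, against 20.1% of all genes. Their summed level was 121 and 69.5 FPKM in the controls and 134 and 104 FPKM under the Sox4-MKO label.

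Ifi27, which encodes a small membrane protein, was the most abundant gene of the group. It reached 1823 and 1842 FPKM in the controls, 1816 FPKM in Sox4-MKO mouse 2 and 1016 FPKM in Sox4-MKO mouse 1. Its difference of -0.43 ± 0.30 was thus that of one mouse. It was -0.01 without Sox4-MKO mouse 1, and -0.85 and called without Sox4-MKO mouse 2. Sox4-MKO mouse 1 also held the most skeletal muscle RNA. Acta1, Myh4, Ckm and Mylpf summed to 9430 FPKM there, to 1610 FPKM in Sox4-MKO mouse 2 and to 126 and 466 FPKM in the controls. Of these 4 genes 3 were called higher under the Sox4-MKO label, against 7.95% of all genes. Sox4-MKO mouse 1 had the lowest endothelial sum over Pecam1, Cdh5, Kdr and Tie1, 104 FPKM against 139 to 168 FPKM in the other libraries. Its sum over the 6 adipocyte markers was the lowest as well, 8560 FPKM against 11200 to 11700 FPKM in the other libraries. The part of any of these in the level of Ifi27 was not tested, nor was that of muscle RNA in the other genotype differences.
Ifi35 reached 23.4 and 17.1 FPKM in the controls and 20.6 and 19.1 FPKM under the Sox4-MKO label, a difference of -0.01 ± 0.19. Ifi44, Xaf1 and Parp14 differed by 0.34, 0.0003 and 0.13, and none was called. Of these genes only Parp14 was higher without overlap.

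**Figure D2:**
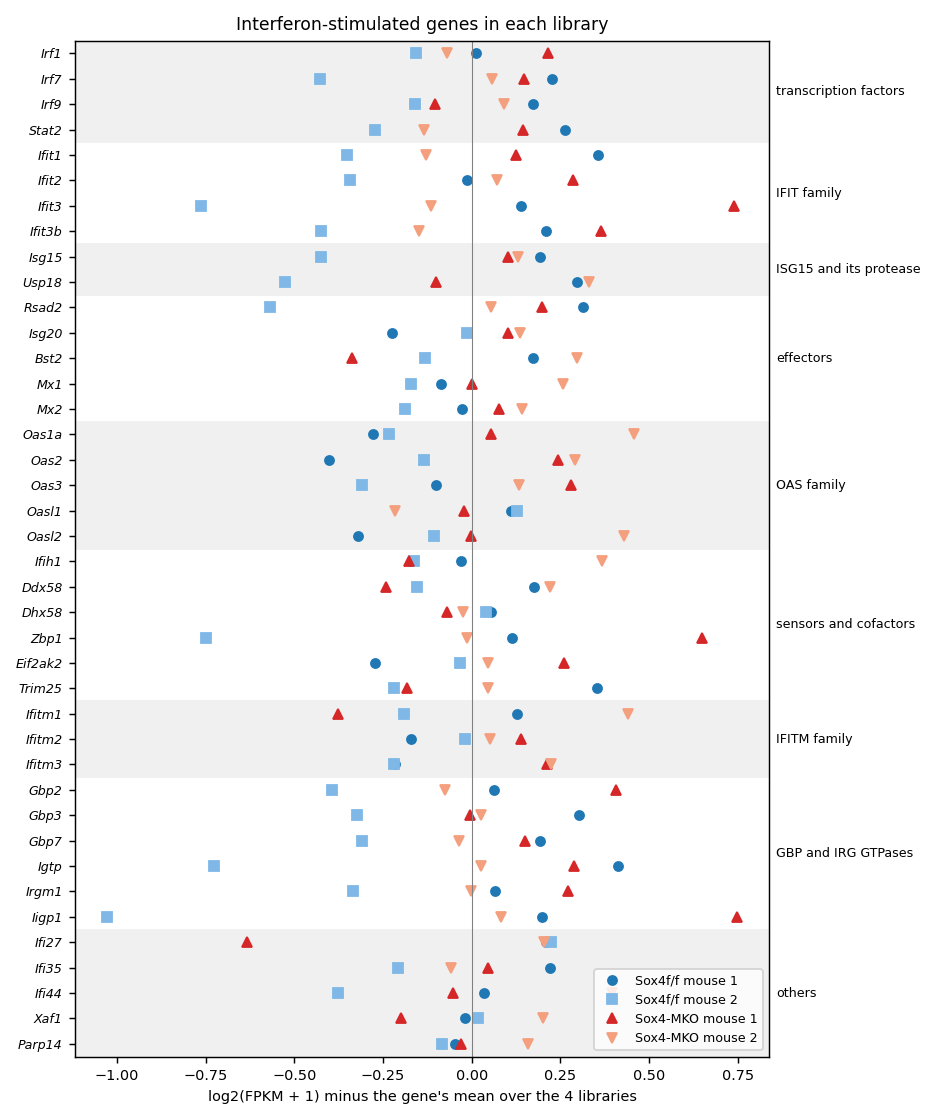
Log2(FPKM + 1) of the 40 interferon-stimulated genes in each of the 4 libraries, minus the gene's mean over the 4 libraries (x axis), ordered by role, with 1 symbol per mouse. Sox4f/f mouse 2 (pale blue squares) is the lowest of the 4 mice at 26 of the 40 genes (65%), against 20.1% of all tested genes. Both controls lie left of both Sox4-MKO mice at Ifit2, Isg20, Mx1, Mx2, Eif2ak2, Ifitm2, Ifitm3, Parp14 and the OAS genes other than Oasl1. Among the 38 tested genes this holds for 26.3%, against 21.7% of all tested genes.

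The 2 Sox4f/f mice differed from each other across the group. Sox4f/f mouse 1 was above Sox4f/f mouse 2 at 29 of the 38 tested genes (76.3%), against 52.3% of all genes tested. The median of this difference was 0.33 on the log2(FPKM + 1) scale, against 0.02 for all genes. In FPKM + 1, the scale of the test, Sox4f/f mouse 1 exceeded Sox4f/f mouse 2 by more than 1.5 times at 11 of the 38 genes (28.9%), against 4.68% of all genes, and the reverse was found at 0 of the 38. Sox4f/f mouse 2 had the lowest value of the 4 mice at 24 of the 38 genes (63.2%), against 20.1% of all genes. These shares describe single mice and were not tested.
The control mice lay further apart than the genotype means at 24 of the 38 genes (63.2%), against 42.4% of all genes. Under the Sox4-MKO label mouse 1 was above mouse 2 at 18 of the 38 genes (47.4%), against 61.3% of all genes. Mouse 1 under that label was the highest of the 4 mice at 10 of the 38 genes (26.3%), against 31.7% of all genes. The macrophage sum given above was higher in Sox4f/f mouse 2 than in Sox4f/f mouse 1, opposite to most interferon-stimulated genes. T and NK cell markers (Cd3e, Cd3d, Cd8a, Ncr1, Nkg7) summed to 7.21 and 4.64 FPKM in Sox4f/f mice 1 and 2, and to 4.02 and 10.4 FPKM under the Sox4-MKO label. Nkg7 gave 4.13 and 2.59 FPKM of the control sums, and only Nkg7 and Cd3e passed the expression limit. Cd3e and Cd8a were also higher in Sox4f/f mouse 1, whereas Cd3d and Ncr1 were higher in Sox4f/f mouse 2. The part of T and NK cells in the difference between the controls was not tested.
The order of the controls was seen in genes with and without a response element core. Among 18 tested genes with a core in the promoter window, the median difference between Sox4f/f mice 1 and 2 was 0.48, and Sox4f/f mouse 2 was lowest at 12. For 12 tested genes without a core the median was 0.32, and Sox4f/f mouse 2 was lowest at 7. The medians of the genotype difference were 0.22 and 0.10.

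**Figure D3:**
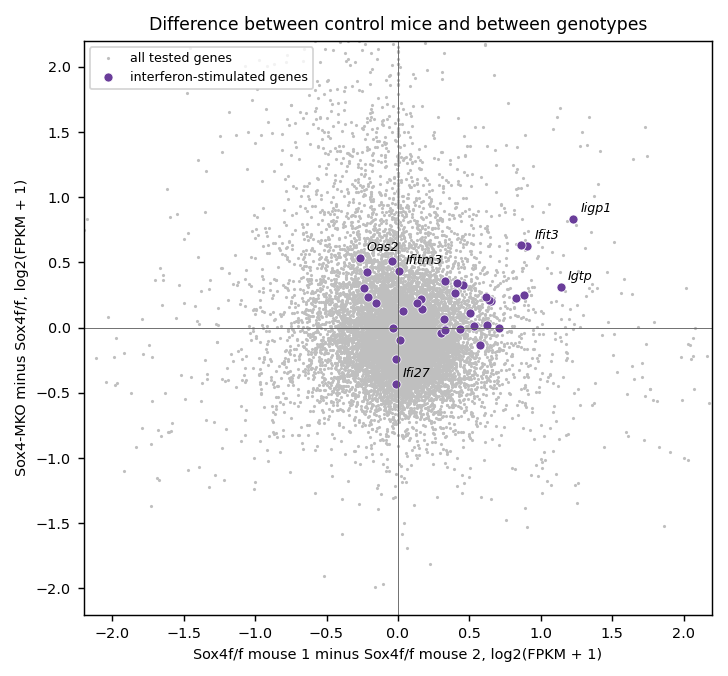
Difference between Sox4f/f mice 1 and 2 (x axis) and between genotypes (y axis, Sox4-MKO minus Sox4f/f), both on the log2(FPKM + 1) scale, for all tested genes (grey, of which 235 lie outside the axes) and the 38 interferon-stimulated genes (purple). Of the purple points 29 lie to the right of zero, Iigp1 and Igtp furthest, and the Sox4f/f libraries enter both axes.

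Further genes of the interferon pathway were described from a list of 66, of which 57 were tested. Of these, 4 were called higher (7.02%, against 7.95% of all genes) and 2 lower (3.51%, against 8.28%), and the median difference was 0.07, against -0.05 for all genes. Neither share was above that of all genes. Ifng, which encodes interferon gamma, was at 0.07 to 0.32 FPKM, and Ifnb1, Ifne, Ifnk, Ifnl2 and Ifnl3 were listed at 0 in all 4 libraries.
Receptor mRNAs were present. Ifnar1 had control values of 17.4 and 17.6 FPKM and Sox4-MKO values of 16.2 and 15.1 FPKM, a difference of -0.15. Ifnar2 had control values of 65.3 and 63.0 FPKM and Sox4-MKO values of 57.8 and 59.9 FPKM, a difference of -0.12. Both subunits of the type I receptor were lower without overlap and not called. Ifngr1 ranged from 53.0 to 75.0 FPKM and differed by 0.19 ± 0.19. Ifngr2 was at 10.1 FPKM in Sox4-MKO mouse 1 and at 5.15 to 5.72 FPKM in the other mice, a difference of 0.45 ± 0.28.
The kinases Jak1, Jak2 and Tyk2 differed by -0.08 ± 0.23, 0.28 ± 0.14 and -0.19 ± 0.18, and none was called.

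The genes called lower were Irf3 and Ticam1. Irf3, the transcription factor that turns on Ifnb1, fell from 48.8 and 51.4 FPKM to 31.2 and 40.1 FPKM, a difference of -0.49 ± 0.16 (unadjusted p = 0.0322, adjusted p = 0.267, limma). Ticam1, which encodes the adaptor TRIF of Toll-like receptors, fell from 9.0 and 6.90 FPKM to 4.89 and 4.93 FPKM, a difference of -0.59 ± 0.18 (unadjusted p = 0.0267, adjusted p = 0.254, limma). In neither did the genotypes overlap.
The 4 genes called higher are Lgals3bp, Trim30a, Ifi47 and B2m. Lgals3bp, a secreted glycoprotein, rose from 41.8 and 46.7 FPKM to 71.5 and 80.2 FPKM, a difference of 0.76 ± 0.13 (unadjusted p = 0.00274, adjusted p = 0.196, limma). Trim30a, a TRIM family protein, rose from 3.15 and 3.75 FPKM to 6.86 and 5.96 FPKM, a difference of 0.74 ± 0.18 (unadjusted p = 0.0105, adjusted p = 0.216, limma). None of the 4 overlapped between genotypes. Ifi47, an IRG GTPase, rose from 6.23 and 4.04 FPKM to 11.2 and 8.50 FPKM, a difference of 0.84 ± 0.25 (unadjusted p = 0.024, adjusted p = 0.247, limma). B2m, the light chain of MHC class I, rose from 1419 and 1086 FPKM to 1704 and 1786 FPKM, a difference of 0.49 ± 0.17 (unadjusted p = 0.0404, adjusted p = 0.286, limma). The macrophage markers were higher in the same libraries, and their part in these 4 genes was not tested. The 5 tested negative regulators, among them Socs3 and Ptpn6, differed by -0.20 to 0.42, and none was called.

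**Figure D4:**
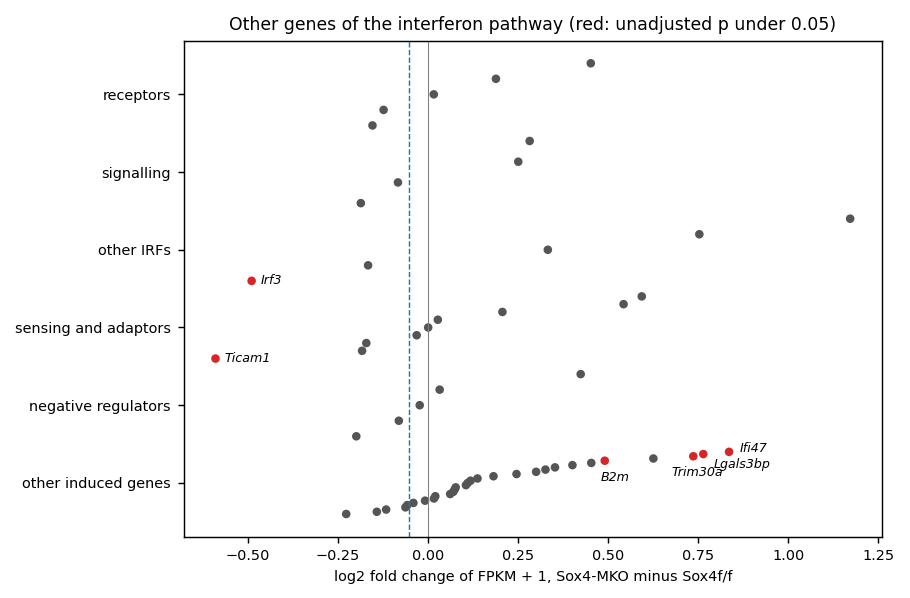
Difference between genotypes of the 57 tested pathway genes outside the main group, as log2 fold change of FPKM + 1 (x axis, Sox4-MKO minus Sox4f/f, n = 2 mice each), by role, with 1 point per gene, red for an unadjusted p under 0.05 by limma and a dashed line at the median of all tested genes. The red points on the left are Irf3 and Ticam1, at -0.49 and -0.59, and the 4 on the right are induced genes between 0.49 and 0.84.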

How the data were processed

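The authors deposited 1 FPKM value per gene symbol for each of 4 BAT libraries. The submitters' processing notes name Cufflinks 2.1.1, Cuffdiff and the build mm10. The aligner, the annotation and the use of strand in counting are not given in the sources used here. The methods describe TRIzol and an Illumina TruSeq library, the labels a column kit and a stranded library. In GENCODE M21, exons of 8 of the 40 genes are overlapped by another gene on the other strand and of 5 on the same strand.

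Genes whose mean FPKM exceeded 1 in either genotype were fitted with limma 3.58.1 in R 4.3.3 on log2(FPKM + 1), with a trended prior and no covariate besides genotype. The methods name no test for their p. Fold changes on this scale understate the change of low genes. p-values are two-sided. They set the difference against the spread between 2 mice per genotype, which the prior draws towards the trend over all genes. A call is an unadjusted p under 0.05. Data were simulated for 12877 genes, of which 200 differed by 1 on the log2 scale. Such calls recovered 82% of the changed genes and took in 5.6% of the others, and adjusted calls recovered 0%. The simulated noise was normal and independent, with standard deviations shuffled among genes, so these rates need not hold for the libraries themselves.

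Values per library were given for called genes and for the 2 most abundant of each role group. Receptors, kinases and called genes of the pathway list were named, except items that are not reported here, and any other gene with its values was chosen after they were seen. Members and lists were chosen with earlier results of these data known. Tmem173 and Mb21d1 of the pathway list were matched as Sting1 and Cgas. Depth was estimated from genes with 1 transcript of at least 1500 nt and is approximate. Shared sequence is the percentage of 50-base words of a gene's GENCODE M21 transcripts found in transcripts of other genes. The 15 alternatives varied the replicate block, each library in turn, the scaling, the FPKM limit, the pseudocount, the moderation and a minimum fold change. Figures were drawn with matplotlib 3.10.9.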

Additional observations from a re-analysis of the deposited data

How the results depend on the processing

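The count of 2 genes called higher was 4 with a replicate block (Ifit3, Ifitm3, Iigp1 and Zbp1), 1 after scaling to a common median, after quantile normalization, with FPKM limits of 0.1 or 5 and without moderation, and 0 with a fold change of at least 1.5, where all genes had 1273 calls in place of 2090. Deviations of same-numbered mice were not correlated over all genes (r = -0.012 across 12877 genes). This value cannot exclude pairs, since genes that deviate alike and genes that deviate in opposite directions can cancel. The main fit takes no pairs. Leaving out each library gave 0 to 3 genes called higher, 0 to 1 lower, a median difference of -0.030 to 0.33, 849 to 2394 calls among all genes (849 without Sox4f/f mouse 1, 1070 without Sox4f/f mouse 2) and 2 to 6 among the pathway genes.
Directions turned at genes with differences near 0 and at genes low in Sox4f/f mouse 2. Stat2 was -0.012 after scaling to a common median, and Bst2 and Ifi35 were 0.0225 and 0.0246 after quantile normalization. Ifit1, Bst2, Ddx58 and Ifi35 were 0.0525, 0.0319, 0.0465 and 0.0558 after rescaling without mitochondrially encoded genes and Ucp1, and Ifit1 was 0.0024 and 0.0036 with pseudocounts of 0.1 and 0.01. With each library left out, the ranges were -0.36 to 0.28 for Bst2, -0.25 to 0.21 for Ddx58, -0.23 to 0.20 for Ifi35, -0.36 to 0.35 for Ifit1, -0.26 to 0.88 for Igtp, -0.078 to 0.54 for Isg15, -0.19 to 0.69 for Rsad2, -0.26 to 0.28 for Stat2, -0.42 to 0.15 for Trim25 and -0.18 to 0.64 for Usp18. The cause was not tested.
Chosen after seeing the data, 3 other scalings left Sox4f/f mouse 2 lowest at 20 to 23 of the 38 genes, against 17.4% to 23.4% of all genes. Without the 6 tested genes that share over 10% of their words with others, 2 were called, the median difference was 0.20 and Sox4f/f mouse 2 was lowest at 20 of 32.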

Other observations

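Irf4, an interferon regulatory factor of the pathway list that also acts in thermogenic adipocytes, was singled out after its values were seen. Its FPKM was 5.63 and 3.74 in the controls, 4.54 in Sox4-MKO mouse 1 and 27.8 in Sox4-MKO mouse 2. The difference of 1.17 ± 0.81 (log2 fold change ± standard error, adjusted p = 0.507, limma) came from one mouse.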
